A study of Mus musculus with 4 samples.

Results

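Interleukin-33 (Il33) and the interleukin-1 (IL-1) family genes measured beside it were followed in organs of Corti that had lost Tbx2, a T-box transcription factor. The members are the cytokine genes Il33, Il18, Il1a and Il1b, the antagonist Il1rn and the receptor genes Il1rl1, Il1rap and Il1r1, and every array probe with 1 of these gene names was taken. They are 8 of the 27438 gene names on the array and were represented by 12 of its 39429 probes. Il33 was chosen by its decrease between the genotypes in these same data, so its genotype values are given as a description with no test.

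RNA came from the basal part of the organ of Corti, the epithelium of the cochlea that holds the sensory hair cells, of NMRI embryos at E18.5 (embryonic day). Sox2-Tbx2LOF embryos were Sox2(creERT2);Tbx2(fl/fl), and controls, which had no cre, were labelled Tbx2(fl/n.d.), so that the label leaves their second Tbx2 allele open, while both parents of the crosses were Tbx2(fl/fl). All dams, also those of the controls, received 4 mg of tamoxifen at E16.5, and the methods of the study name progesterone in addition. CreERT2, a recombinase that tamoxifen activates, sits in the Sox2 locus, so that Tbx2 can be removed only in cells that express Sox2, and the control pools lack CreERT2 together with the change of the Sox2 locus. Per the methods and supplement of the study, a fluorescent reporter allele at the R26 locus came from the mothers of these crosses and so reached offspring with and without cre, while the labels do not give it for these pools. Each of 4 dual-colour arrays compared a pool of several Sox2-Tbx2LOF organs with a control pool of the same sex, female on arrays 1 and 2 and male on arrays 3 and 4. The Sox2-Tbx2LOF RNA carried the green dye Cy3 on arrays 1 and 3 and the red dye Cy5 on arrays 2 and 4.

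IL-1 family cytokines are signals of tissue damage and inflammation. IL-33 is stored in the nucleus of epithelial, stromal and endothelial cells in many tissues and acts on other cells once it is released. Its receptor pairs the product of Il1rl1, known as ST2, with the accessory chain encoded by Il1rap, and the same accessory chain serves the IL-1 receptor. All these receptors signal through MyD88 and IRAK kinases to NF-κB.

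The single Il33 probe (A_55_P1964960) begins at base 2450 of NM_001164724 and lies at chr19:30035101-30035160 on the plus strand of the mouse genome build mm9. The array files list it for 2 RefSeq transcripts and do not state the exon. The probe sequences that measured Il33 and that are listed for different transcripts of its accessory chain are shown by their first 30 of 60 bases, 5′ to 3′.

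Il33 probe: gtgaatctgtacgatatctttaaagtagta

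Il1rap probe of the soluble form, NM_134103: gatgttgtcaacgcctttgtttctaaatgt

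Il1rap probe of the membrane form, NM_008364: catacatctttcagtagtcattggcaaaat

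RefSeq gives 2 transcription starts for Il33, and 1 probe cannot tell from which of them the RNA came. The 250 bases before each start are printed because Tbx2, the gene removed here, encodes a DNA-binding protein that recognizes T-box motifs. They come from RefSeq on build GRCm38.p6, on the plus strand at chr19:29924863-29925112 for the upstream start and at chr19:29945540-29945789 for the downstream start, and capitals mark the T-box core GGTGTG or its reverse complement CACACC.

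Il33 upstream start: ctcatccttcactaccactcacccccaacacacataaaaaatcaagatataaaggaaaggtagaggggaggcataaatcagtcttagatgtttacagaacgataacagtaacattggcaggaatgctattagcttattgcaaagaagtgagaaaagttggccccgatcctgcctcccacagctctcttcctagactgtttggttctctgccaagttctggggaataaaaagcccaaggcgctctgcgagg

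Il33 downstream start: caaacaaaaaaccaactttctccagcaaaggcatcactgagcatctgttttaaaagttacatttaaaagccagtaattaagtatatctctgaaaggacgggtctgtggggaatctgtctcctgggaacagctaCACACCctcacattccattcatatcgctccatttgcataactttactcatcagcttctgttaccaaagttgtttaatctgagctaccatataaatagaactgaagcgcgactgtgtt

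The core occurred once before the downstream Il33 start, with its nearest base 112 bases before it, and not before the upstream start. It was present in 16.3% of all 32851 RefSeq windows of this length, searched on both strands. The longer motif AGGTGTGA, which contains the core, was present in 1.12% of them and in neither Il33 window. All 8 members had a RefSeq start, in 13 windows, of which 3 held the core. The other 2 belong to Il1rn, whose overlapping windows share a single match. A match in these letters is a description of the sequence and not of a bound site.

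Il33 RNA was lower in the Sox2-Tbx2LOF pools than in the control pools on all 4 arrays. After background correction and normalization, the log2 channel level of Il33 was 13.71, 13.40, 13.67 and 13.37 in the control pools of arrays 1 to 4. It was 12.28, 12.58, 12.56 and 12.51 in the Sox2-Tbx2LOF pools. The lowest control pool was above the highest Sox2-Tbx2LOF pool, which is a description only, since Il33 was selected on this contrast. Means were 13.54 ± 0.18 in controls and 12.48 ± 0.14 in Sox2-Tbx2LOF (SD, n = 4 pools each).

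**Figure D1:**
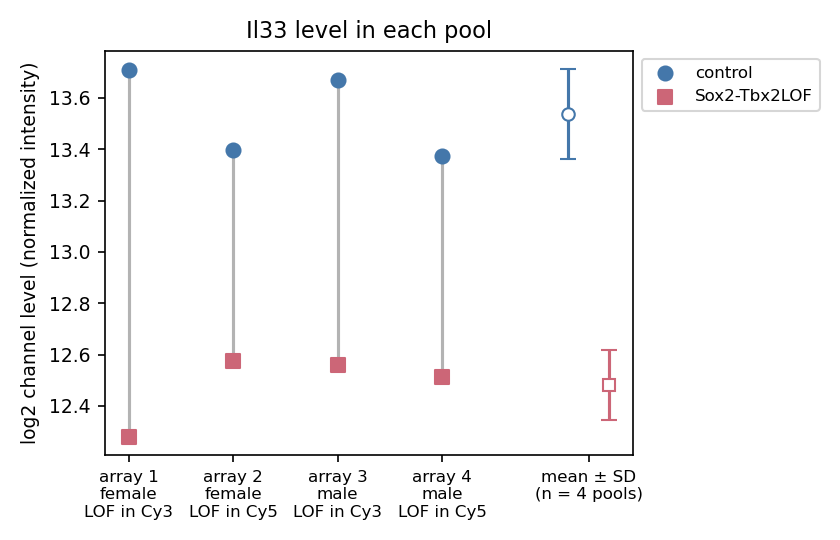
Il33 level (log2 channel level after normalization, y axis, which does not start at 0) in the control pool (circles) and the Sox2-Tbx2LOF pool (squares) of each array, with the mean ± SD of 4 pools at the right. All 4 control pools lie above all 4 Sox2-Tbx2LOF pools, and the gap is widest on array 1.

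The log2 ratio of Sox2-Tbx2LOF over control for Il33 was -1.43, -0.82, -1.11 and -0.86 on arrays 1 to 4. Its mean of -1.06 ± 0.28 (SD, n = 4 arrays) corresponds to 2.08-fold lower RNA, or 48.1% of the control level. Of all 28104 probes tested, 0.249% passed the threshold for a called change, an adjusted p under 0.05 and a change of at least 1.5-fold. Since Il33 was selected on this contrast, nothing is read from its place among them. In bulk RNA of this kind, fewer cells that express a gene and less RNA per cell cannot be told apart.

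The Il33 ratio moved with the dye orientation. It averaged -1.27 on the 2 arrays with Sox2-Tbx2LOF RNA in Cy3 and -0.84 on the 2 arrays with it in Cy5, and each sex has 1 array of either orientation. Raw signals were far above background in both dyes. The median Il33 spot read 4802 to 6484 in the Sox2-Tbx2LOF channels and 9666 to 14081 in the control channels, between 75.1 and 307 times the local background. None of the 16 Il33 spots was left out, and the SD of the log2 ratio among the 4 spots of an array was 0.021 to 0.12.

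Sex was not used in choosing Il33 and could be tested. The mean Il33 level was 12.99 in the 4 female pools and 13.03 in the 4 male pools. The difference, male minus female, was 0.04 with a standard error (SE) of 0.08 and a 95% interval from -0.14 to 0.22 on the log2 scale. The decrease averaged -1.13 in the 2 female arrays and -0.99 in the 2 male arrays. The difference of these effects was 0.14 (95% interval -0.15 to 0.43). Neither passed the test, with an adjusted p in limma of 0.909 for the level and 1.00 for the sex by genotype term, both adjusted over all tested probes.

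The other members can be read against this decrease by their role in the pathway. Of their 11 probes, 5 probes of 4 genes were above background and were tested, namely Il1rl1, both forms of Il1rap, Il18 and Il1r1. None was called between the genotypes, where 0.249% of all tested probes were called, and none was significant without the fold threshold, where 0.986% of all tested probes were. Their mean log2 ratios lay between -0.07 and 0.11. Their 95% intervals spanned -0.20 to 0.24 on this scale, which shrinks the ratios of dim probes. For the bright probes of Il18 and Il1r1, a change of 1.5-fold in either direction was outside the interval, also with an offset of 10, the scanner ratio and the deposited fold changes. For the dim probes of Il1rl1 and Il1rap no such bound is given. With the scanner ratio the upper end was 0.33 for Il1rl1, and with the deposited fold changes the interval of the membrane form of Il1rap, -0.37 to 0.63, reached past 1.5-fold. At an unadjusted p under 0.05 in limma, 1 of the 5 probes passed, that of Il1r1, beside 7.12% of all tested probes. The unpaired limma fit on channel levels also called 0.

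**Figure D2:**
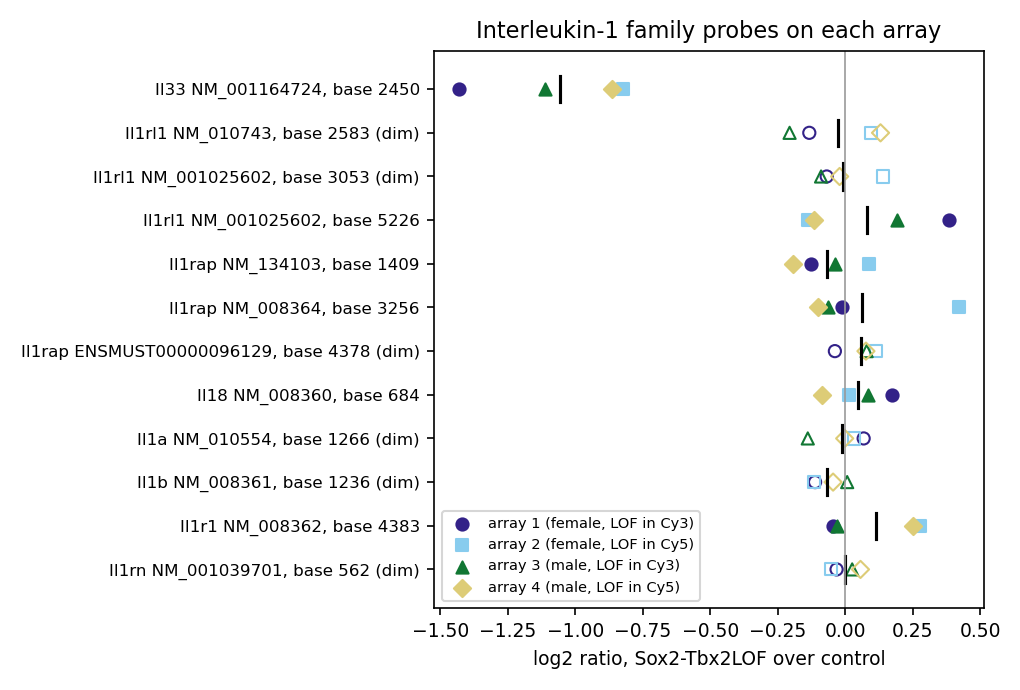
Log2 ratio of Sox2-Tbx2LOF over control (x axis) on each of the 4 arrays for the 12 probes of the 8 members, with a bar at the mean; open symbols (dim) mark probes that were not above background, and array symbols name the sex and the dye of the Sox2-Tbx2LOF (LOF) RNA. Il33 is below 0 on all arrays, and the 5 other tested probes have means from -0.07 to 0.11 and arrays on both sides of 0.

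Il1rl1 encodes ST2, the receptor chain that binds IL-33. It was measured at base 5226 of the membrane form NM_001025602 (A_55_P2027737), at chr1:40522187-40522246 in mm9. Log2 levels were 6.94, 7.09, 6.94 and 6.99 in control pools and 7.33, 6.95, 7.13 and 6.87 in Sox2-Tbx2LOF pools of arrays 1 to 4. The groups overlapped, with the Sox2-Tbx2LOF pool higher on the 2 arrays with it in Cy3 and lower on the 2 others. The log2 ratio was 0.08 (SE 0.05, adjusted p in limma 1.00). This probe was dim, at 1.66 to 3.43 times the local background. A second probe of the same transcript at base 3053 (A_55_P2027731) was not well above background on any array, and the distance between both probes is the same in the transcript as in the genome. The probe listed for the soluble form NM_010743 (A_51_P339793), which ends earlier and acts as a decoy for IL-33, was not well above background on any array either. The 3 Il1rl1 probes thus disagree on whether ST2 RNA was detected.

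The names soluble and membrane form are those generally used for these RefSeq transcripts and are not given in the array files. Il1rap encodes the accessory chain without which neither ST2 nor the IL-1 receptor signals. The probe of the membrane form NM_008364 (A_55_P2041422, chr16:26716515-26716574 in mm9) had log2 levels of 7.28, 7.25, 7.51 and 7.48 in controls and 7.27, 7.67, 7.45 and 7.38 in Sox2-Tbx2LOF. The female Sox2-Tbx2LOF pool of array 2 was higher than every other pool, and the rest overlapped. The log2 ratio was 0.06 (SE 0.08, adjusted p in limma 1.00), and without array 2 it was -0.07. The soluble form NM_134103 (A_52_P467232, chr16:26701498-26701557) had levels of 7.49, 7.44, 7.65 and 7.71 in controls and 7.36, 7.53, 7.61 and 7.52 in Sox2-Tbx2LOF, which overlapped. Its log2 ratio was -0.07 (SE 0.06, adjusted p in limma 1.00), and 0.0030 without array 4. The third Il1rap probe (ENSMUST00000096129) was not above background.

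Il1r1 encodes the signalling receptor of IL-1. Its log2 levels (A_51_P271503, chr1:40372667-40372726 in mm9) were 10.35, 10.12, 10.43 and 10.19 in controls and 10.31, 10.40, 10.40 and 10.44 in Sox2-Tbx2LOF. The levels overlapped between the genotypes. The ratio was near 0 on the arrays with Sox2-Tbx2LOF in Cy3, at -0.04 and -0.03, and above 0 on those with it in Cy5, at 0.28 and 0.25. The mean log2 ratio was 0.11 (SE 0.05, 95% interval 0.01 to 0.22), with an unadjusted p of 0.0382 and an adjusted p in limma of 0.631.

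Among the cytokines other than Il33, only Il18 was detected. Il18 encodes a cytokine that, unlike IL-33, is made as a precursor and activated by caspase-1. Its log2 levels (A_66_P105046, chr9:50389761-50389820 in mm9) were 11.33, 11.54, 11.53 and 11.72 in controls and 11.50, 11.56, 11.61 and 11.64 in Sox2-Tbx2LOF. The groups overlapped, and the log2 ratio was 0.05 (SE 0.05, 95% interval -0.07 to 0.16, adjusted p in limma 1.00). Its raw signal was 31.8 to 114 times the local background, so that this interval rests on a bright probe.

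Il1a and Il1b, the agonists of the IL-1 receptor, and Il1rn, its antagonist, were not well above background in any pool. Together with the dim probes of Il1rl1 and Il1rap these are 6 probes. Their raw signals were 0.760 to 1.55 times the local background and their log2 levels were between 5.98 and 6.50 in both genotypes. No fold change is given for them, since a difference between genotypes was not detectable at this signal.

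No member differed in level between the sexes after adjustment, where 0.0676% of all tested probes did. At an unadjusted p under 0.05 in limma, 1 of the 6 tested member probes passed, that of the soluble form of Il1rap, beside 7.91% of all tested probes. It was 0.17 higher in males (SE 0.07, unadjusted p 0.0351, adjusted p in limma 0.623). No member passed the sex by genotype test, and neither did any other probe (0% of all tested probes), with 0 of the 6 member probes and 2.01% of all probes at an unadjusted p under 0.05 in limma.

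Further genes of the pathway were then followed in lists of ligands, receptors, signalling, processing, induced and type 2 genes. The array had probes for all 74 listed genes, and 48 of them were above background, each represented by its brightest probe. None of the 48 was significant, beside 1.16% of all 19958 genes tested in this way, a share at which 0 of 48 is not apart from the background. Of the 48, 1 gene passed an unadjusted p under 0.05 in limma, beside 7.89% of all tested genes, and the unpaired fit on channel levels also called 0. The median log2 ratio of the 48 genes was 0.01, beside 0.00 over all genes tested, and 27 were above 0 and 21 below. Their ratios ranged from -0.12 to 0.15. Some of the 48, such as Ctsg and Ccl17, were dim, and this scale shrinks the ratios of dim probes.

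Of the other IL-1 family ligands (Il36a, Il36b, Il36g, Il36rn and Il1f10; the array carries older symbols for the IL-36 genes), 0 of 5 were above background. Of 8 further receptors, decoys and regulators, 3 were tested. Il18bp, which encodes a secreted inhibitor of IL-18, had a log2 ratio of -0.02 ± 0.08, and Il1rapl1, a neuronal member of the receptor family, had -0.02 ± 0.14 (SD, n = 4 arrays each). Sigirr, an inhibitory receptor of the family, had -0.01. The receptors Il1r2, Il1rl2, Il18r1, Il18rap and Il1rapl2 were not tested, because their probes were dim. The chains of the IL-18 receptor were thus not detected, while Il18 was.

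All 21 signalling genes from MyD88 to NF-κB were tested. Their median log2 ratio was 0.01 and they lay between -0.07 and 0.07. The largest ratios were those of Irak3, an inhibitory member of the IRAK family, at 0.07 ± 0.18, and of the NF-κB subunit gene Nfkb2 at -0.07 ± 0.09 (SD, n = 4 arrays). Both SDs were larger than the ratio itself.

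Of 15 genes for caspases, inflammasome parts and proteases that act on IL-1 family cytokines, 13 were tested, with a median log2 ratio of 0.03. Casp4, an inflammatory caspase, had the largest, 0.15 ± 0.40, and it was 0.73 on array 1 and between -0.13 and 0.10 on the 3 others. Ctsg, the protease cathepsin G, was next in size with 0.09 ± 0.01, above 0 on all 4 arrays (adjusted p in limma 0.865). Its mean log2 levels, 6.59 in Sox2-Tbx2LOF and 6.50 in controls, were next to those of the undetected member probes, where the offset shrinks ratios. The small SD is thus not read as precision.

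Of 15 genes that IL-1 commonly induces through NF-κB, 8 were tested, with a median log2 ratio of -0.01. Nfkbiz, an inducible nuclear member of the IκB family, was below 0 on all 4 arrays, at -0.21, -0.14, -0.07 and -0.06. It had an unadjusted p of 0.0375 and an adjusted p in limma of 0.626. Vcam1, an adhesion molecule, had 0.09 ± 0.10. Il6, Cxcl2 and Csf2 were among the 7 genes that were too dim to test.

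Of 10 type 2 genes, which cells that respond to IL-33 typically express, 3 were tested and the cytokine genes Il4, Il5, Il9 and Il13 were not above background. The chemokine genes Ccl17 and Ccl24 had log2 ratios of 0.05 ± 0.08 and -0.04 ± 0.07 (SD, n = 4 arrays).

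**Figure D3:**
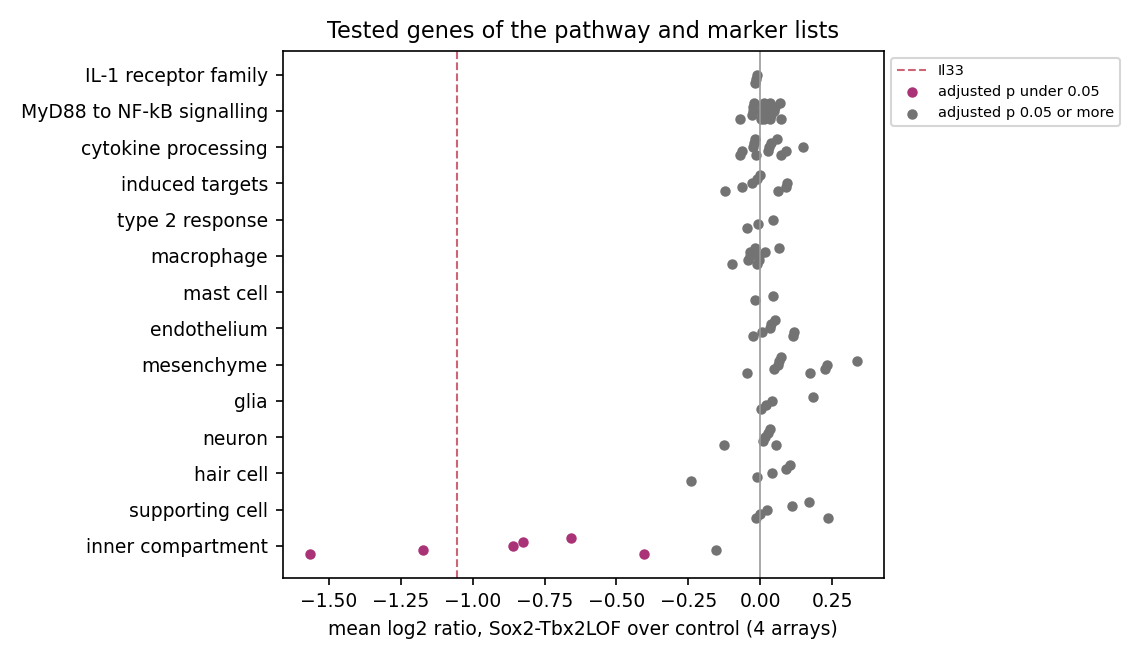
Mean log2 ratio of Sox2-Tbx2LOF over control on 4 arrays (x axis) for each tested gene of the pathway lists (upper 5 rows) and of the cell type marker lists (lower 9 rows), coloured by whether its adjusted p was under 0.05; points are spread vertically within a row only to separate them, and the dashed line marks Il33. All tested pathway genes lie between -0.12 and 0.15, and the 6 genes with an adjusted p under 0.05 are all in the inner compartment row. That row was drawn up with the study's results on these pools known, so it is not independent evidence.

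Marker genes show which cells the pools held and which of them moved beside Il33. Markers of hair cells (5 of 5), supporting cells (6 of 6), mesenchyme (9 of 9), endothelium (7 of 7), macrophages (10 of 10), glia (4 of 4) and neurons (6 of 6) were all above background, and of 6 mast cell markers 2 were. In these lists 0 genes were significant in limma, and 4 mesenchymal, 3 supporting cell, 1 glial and 1 hair cell gene passed an unadjusted p under 0.05, beside 1.16% and 7.89% of all tested genes. Endothelial cells and mesenchyme are known sources of IL-33 elsewhere, and the study's dissection had taken the spiral ligament, a mesenchymal tissue, and the spiral ganglia away. The summed endothelial marker level (linear scale) was 24983 to 26104 in Sox2-Tbx2LOF pools and 24246 to 26406 in controls. It is carried mostly by Emcn, Esam and Kdr, at 13.53, 12.24 and 12.16 in controls on the log2 scale. Their log2 ratios were 0.00, -0.03 and 0.04. Pecam1, Cdh5, Tie1 and Tek had 0.12, 0.12, 0.05 and 0.03, so that 6 of 7 genes were above 0. In mesenchyme the summed marker level was 376435 to 402574 in Sox2-Tbx2LOF pools and 319738 to 375549 in controls. That sum is carried mostly by Col1a2, Lum, Dcn and Col3a1, at 15.72 to 16.49 in controls on the log2 scale. Their log2 ratios were 0.17, 0.06, 0.23 and 0.23. Tbx18, Pdgfra, Pou3f4 and Twist1 had -0.05, 0.05, 0.07 and 0.07. Col1a1, a collagen gene, had the largest ratio of the mesenchyme list, 0.34 ± 0.23 (adjusted p in limma 0.0608). The part of these cells in the Il33 value was not tested.

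Genes of the inner compartment, the inner hair cells with their supporting cells, were the list that fell beside Il33. The study's in situ hybridization at E18.5 located Il33 RNA in this compartment and in the adjacent greater epithelial ridge. The study reports that signal as lower in Sox2-Tbx2LOF cochleae. Of the 7 listed genes, 6 were significant and lower, beside 1.16% of all tested genes that were significant in either direction. The median log2 ratio of the list was -0.82. They included Fgf8, a growth factor gene of inner hair cells (-1.57 ± 0.07), and Otol1, a matrix protein gene (-0.86 ± 0.22, SD, n = 4 arrays). The summed level of the list was 17218 to 21401 in Sox2-Tbx2LOF pools and 21948 to 25984 in controls. That sum is carried mostly by Tbx2 and Otof, at 13.46 and 13.11 in controls on the log2 scale. Fgf8 was at 10.69 and the rest were lower, so the sum says little about them. The list was drawn up with the study's results on these pools known, so it is not independent evidence, and its part in the Il33 value was not tested. Tbx2 itself, the targeted gene, had log2 ratios of -0.06, -0.24, -0.02 and -0.30 (adjusted p in limma 0.313). Where its probe lies relative to the deleted part is not given in the sources used here, so it does not check the labels.

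Genes around Il33 on chromosome 19 were compared next. Within 1 Mb of the Il33 probe, 25 probes of 21 other genes were tested. Of these, 1 was significant, beside 0.986% of all tested probes, and it was under 1.5-fold and so not called, beside 0.249%. The significant gene was Dkk1, which encodes a secreted Wnt antagonist, and its probe (A_51_P379069, chr19:30621424-30621483 in mm9) lies 586 kb from that of Il33. Log2 levels of Dkk1 were 7.61, 7.45, 7.63 and 7.44 in controls and 7.01, 7.16, 6.92 and 7.21 in Sox2-Tbx2LOF. These levels were as low as those of the dim tested probes of Il1rl1 and Il1rap, whose ratios this scale shrinks. The ratio was -0.46 (SE 0.05, adjusted p in limma 0.00304). Like that of Il33 it was larger with Sox2-Tbx2LOF in Cy3, at -0.59 and -0.70, than in Cy5, at -0.29 and -0.23. Without a dye term the adjusted p was 0.125. Dkk1 passed the 1.5-fold threshold and was called with an offset of 10, at -0.61 (adjusted p in limma 0.000635), and with the scanner software's own ratio, at -0.75 (adjusted p in limma 0.00395), and the deposited fold changes gave -0.74, with an adjusted p of 0.201.

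The 24 other tested probes had log2 ratios between -0.09 and 0.08. The nearest tested ones on either side of Il33 were Ranbp6, with ratios of 0.03 and 0.05 at its 2 probes, and Uhrf2, a ubiquitin ligase gene, with -0.05 at both of its probes. Further tested neighbours were Plpp6, Cdc37l1, Ak3, Gm9895, Rcl1, Gm9883, Jak2, Insl6, Rln1, Plgrkt, Cd274, Ric1, Ermp1, Mlana, 9930021J03Rik, AK049642, Gldc and Prkg1. Jak2, a cytokine receptor kinase gene, had 0.01, and Cd274, which encodes the immune checkpoint ligand PD-L1, had 0.04. The probes of Pdcd1lg2, A930007I19Rik, Trpd52l3 and Mbl2 and 2 probes without a gene symbol were dim and not tested.

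**Figure D4:**
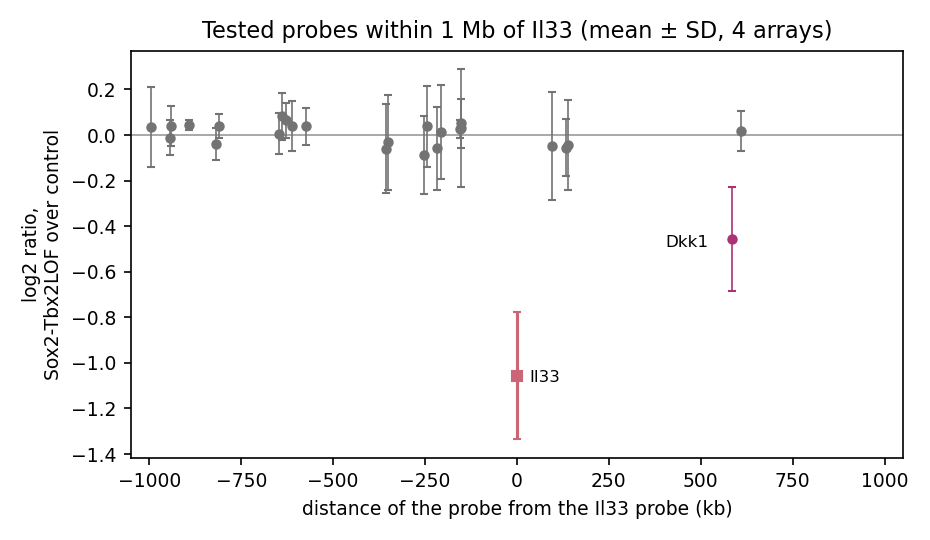
Log2 ratio of Sox2-Tbx2LOF over control (y axis, mean ± SD of 4 arrays) of the 25 tested probes within 1 Mb of the Il33 probe against the distance of the probe from it in kb (x axis), with Il33 as a square. Dkk1 at -0.46 is the only one with an adjusted p under 0.05, and the 24 others lie between -0.09 and 0.08.

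Genes whose levels over the 8 pools were most like those of Il33 were Wfdc12 (Pearson r = 0.977), Trh (0.970), Pkd2l1 (0.962), Prdm12 (0.957) and Fgf8 (0.949). They were ranked among 184 tested genes whose levels spanned at least 1 log2 unit, and the next gene had 0.945. Within the genotypes, after each genotype's mean was removed, r with Il33 was 0.51 for Wfdc12, 0.26 for Trh, 0.10 for Pkd2l1, -0.28 for Prdm12 and -0.02 for Fgf8, so that the likeness rests on the gap between the genotypes, on which Il33 was selected. These correlations describe 8 points that share 4 arrays and fall into 2 genotype groups, and they are given with no test. Wfdc12, which encodes a small protein with a WAP domain, had a log2 ratio of -1.54 ± 0.03. Trh, which encodes the precursor of thyrotropin-releasing hormone, had -2.91 ± 0.08, and Pkd2l1, a cation channel gene of the polycystin family, had -1.48 ± 0.10. Prdm12, which encodes a PR domain transcription regulator, had -2.55 ± 0.11 (SD, n = 4 arrays each). All 5 had a smaller SD between arrays than Il33, whose ratio differed between the dye orientations. In the Sox2-Tbx2LOF pools the mean log2 levels of Trh and Prdm12 were 7.12 and 7.03. These were as low as the levels of the dim tested probes of Il1rl1 and Il1rap, where the offset shrinks ratios. The small SDs of Trh and Prdm12 are thus not read as precision.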

How the data were processed

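The deposited scanner files hold linear spot intensity values, extracted by the authors from the array images with Feature Extraction 10.7.3.1, and a log10 ratio of red over green after the software's own background and dye correction. The deposited series matrix holds a signed fold change per array, a score of unstated processing. On a log2 scale it correlated at 0.903 to 0.926 with the ratios used here on the 4 arrays, which settled its direction as Sox2-Tbx2LOF over control, and each column had a median of 0. With the scanner software's own ratio it correlated less, at 0.648 to 0.696. The centring of the series matrix is not stated. No columns of the authors' own comparisons were used.

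Intensities were corrected with normexp (offset 50) and normalized by loess within each array in limma 3.58.1 (R 4.3.3). Control spots and spots with outlier flags were left out, and no spot was saturated. The 4 spots of a probe were averaged. Channel levels were computed after loess and Aquantile normalization. The offset shrinks the ratios of dim probes, and loess assumes that most genes do not change. A probe was tested when more than 0.5 of its spots were well above background on at least 3 of 4 arrays in either genotype, which left 28104 of 39429 probes. The number of arrays limits the precision.

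Genotype was tested with limma (lmFit, eBayes) on the log2 ratios with a dye term, sex by genotype with an added sex term, and sex differences in level with a separate-channel fit with a correlation of 0.270 between the channels of a spot. All p-values are two-sided and Benjamini-Hochberg adjusted over all tested probes, and pools are the replicates. The study names Significance Analysis of Microarrays with unpaired classes and a minimum change of 1.5-fold. The ratio within an array was used in its place, with unpaired limma as an alternative. The fits were tested on simulated data with known changes. Gene symbols came from a RefSeq table (GRCm38.p6) for 28328 probes and otherwise from the array files, probe positions from the array files (mm9). All 4 arrays share a scan date. The members and gene lists were chosen with earlier results of these data known. Genes were named by rule. These were every member, the genes of a pathway list that were significant and the 2 with the largest ratio in each list, all genes within 1 Mb of Il33 and the 5 genes with the pattern most like Il33. Other listed genes were named to show which were detected, and the mesenchyme and inner compartment genes were named after their values were seen. Alternatives were the scanner ratio, the series matrix, an offset of 10, median centring, no dye term, the unpaired fit, no filter on dim probes and leaving out each array.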

Additional observations from a re-analysis of the deposited data

Results flagged for a closer look

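In 39 groups of 4 values (the ratios and the channel levels of either genotype for the 12 member probes and Dkk1), 2 held a value far from the others, and chance flags about 1 in 20 groups. The log2 ratio of the membrane form of Il1rap was 0.42 on array 2, far from the other 3 arrays, which lay between -0.10 and -0.01. The log2 level of Il1rn in the Sox2-Tbx2LOF pool of array 4 was 6.15, away from the 3 others at 6.09, and this probe was not well above background.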

How the results depend on the processing

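The Il33 log2 ratio stayed between -1.14 and -0.98 under all 11 alternatives, which is also its range when 1 array was left out, and moved by less than the SD between arrays in each. Counts of called members, significant pathway genes and members with a sex or a sex by genotype difference were 0 under every alternative run. Of genes near Il33, 1 (Dkk1) was significant in 9 of 11 alternatives and 0 were with the series matrix values or without a dye term. Dkk1 was also called, past 1.5-fold, with an offset of 10 (-0.61) and with the scanner ratio (-0.75). Leaving out 1 array in turn kept the count at 1. The causes were not tested. The fit with no replicate block, unpaired on channel levels, gave -1.06 for Il33, and Dkk1 had an adjusted p of 0.0323 in limma. Among 5 tested probes of other members, the direction turned in Il1rap only. With 1 array left out, its membrane form ranged from -0.070 (without array 2) to 0.19 and its soluble form from -0.14 to 0.0030 (without array 4). Over all probes, 277 were significant with the settings used here, 116 without a dye term, 116 in the unpaired fit, 442 without array 2 and 1 with the series matrix values. The count of called probes was 70, against 124 with the scanner ratio, 106 without array 1 and 1 with the series matrix values. Signal close to background limits Il1rl1 and Il1rap, and Dkk1 had levels as low as theirs, while Il33, Il18 and Il1r1 were bright.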
